A study of Saccharomyces cerevisiae with 16 samples.

Results

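Transcript levels of 10 Saccharomyces cerevisiae heat shock genes were followed through glucose starvation, block of translation and loss of RNA decay factors. The genes were chosen by name, with earlier results of these data known: HSP12 (YFL014W), HSP26 (YBR072W), HSP42 (YDR171W), HSP30 (YCR021C), HSP82 (YPL240C), HSC82 (YMR186W), HSP104 (YLL026W), HSP78 (YDR258C), BTN2 (YGR142W) and CUR1 (YPR158W). They are 10 of 11997 features other than spike-ins, or 10 of 5899 protein-coding genes, and all 10 passed the filter on low values.

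Heat shock genes encode proteins that keep other proteins folded when a cell is under stress. Small heat shock proteins bind unfolded proteins and hold them, Hsp100 disaggregases pull proteins out of aggregates, and Hsp90 finishes the folding of client proteins such as kinases. In yeast many of these genes are driven by the heat shock factor Hsf1, which binds heat shock elements, and by Msn2 and Msn4, which bind stress response elements (STRE) when glucose is lost.

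Strand-specific total RNA was sequenced from haploid cells, in 8 groups of 2 libraries that the series describes as biological replicates. All strains carried MATa his3Δ1 leu2Δ0 met15Δ0 ura3Δ0. The groups were xrn1Δ::kanMX4 cells (strain YAM6) starved and in glucose, upf1Δ::kanMX4 cells (strain YAM202) starved and in glucose, wild-type cells (strain YAM1) with cycloheximide starved and in glucose, and wild-type cells with DMSO starved and in glucose. Xrn1 is the cytoplasmic exonuclease that degrades decapped mRNA from its start, and Upf1 is the helicase that nonsense-mediated decay depends on. Cultures in mid-log growth on glucose were moved for 16 min to medium with glycerol and ethanol (starvation), or stayed in glucose. Wild-type cultures then received the translation inhibitor cycloheximide at 100 µg/ml or the same volume of DMSO. The labels give neither a solvent for the mutants nor how long the drug acted, and each mutant is a single named strain.

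Levels are the deposited reads per nucleotide, a coverage signal per length of each feature. The spike-in RNAs sum to between 305 and 317 in each library, so a level is a share against spike-in added to a set mass of total RNA, and not a level per cell. A change in RNA per cell and a change in the total RNA of a cell cannot be told apart. Depth, recovered from the steps between values, on open reading frames was 6.75 M reads in the shallowest library and 33.1 M reads in the deepest, and the fewest reads behind any of the 10 genes in a library were 341, for CUR1. The deleted genes matched the labels: in glucose UPF1, listed as NAM7, lay at 0.0147 in upf1 against 0.599 in wild type, and XRN1 lay at 0.0775 in xrn1 against 1.16 in wild type. As a check of the MATa label, the 6 markers of mating type a had group means between 0.279 and 66.7, while of the 5 alpha markers the pheromone genes MF(ALPHA)1 and MF(ALPHA)2 stayed at or under 0.0228 and 0.0278. The highest group mean of STE3 was 0.219, and AFB1 and SAG1 reached 0.478 and 1.35, above the lowest mean of an a marker. The column headers carry the prefix D940 for the 4 cycloheximide libraries and D1277 for the other 12, and what the prefix marks cannot be told apart from the drug. A log2 change is the starved minus the glucose group, or the mutant or drug minus the wild-type or DMSO group, on the scale log2(value + 0.00369), which understates changes of low genes. It is given ± SE, and a change passed at an adjusted p under 0.05 (limma, Benjamini-Hochberg over 11599 features). A median given for all protein-coding genes covers the 5817 tested. Where groups are said not to overlap, this describes 2 libraries against 2 and is not a test. The share of all features without overlap was not computed.

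The stretches of DNA before the start codons are shown because 4 of the genes share a run of heat shock units and 5 hold clustered STREs. Sequences were read from the R64 genome, the build in the submitters' processing notes, 5′ to 3′ on the strand of the gene. Capitals mark matches to the heat shock motif (GAANNTTC or TTCNNGAA, extended where further units of GAA or TTC follow) and STREs (AGGGG, or CCCCT on the other strand). HSP42 lies on chromosome IV, HSP78 on IV, HSP104 on XII and BTN2 on VII. Each of these 4 holds 1 run of 4 alternating units, which contains 2 overlapping matches to the motif of 3 units:
HSP42: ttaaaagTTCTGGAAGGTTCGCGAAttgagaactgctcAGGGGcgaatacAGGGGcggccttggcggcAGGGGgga
HSP78: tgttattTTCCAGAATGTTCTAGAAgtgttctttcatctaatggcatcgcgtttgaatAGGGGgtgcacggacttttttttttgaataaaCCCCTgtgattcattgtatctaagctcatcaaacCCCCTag
HSP104: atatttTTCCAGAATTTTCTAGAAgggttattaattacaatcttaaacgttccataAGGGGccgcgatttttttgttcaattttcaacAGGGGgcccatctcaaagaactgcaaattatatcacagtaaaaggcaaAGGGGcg
BTN2: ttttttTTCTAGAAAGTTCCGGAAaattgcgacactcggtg

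These are chrIV:806371-806446 (plus strand) for HSP42, chrIV:974367-974497 (minus strand) for HSP78, chrXII:88315-88457 (plus strand) for HSP104 and chrVII:772104-772144 (plus strand) for BTN2. The run of units lies within the 500 bases before the start codon in all 4. In HSP42, HSP78 and HSP104 it is followed by 3 STREs. BTN2 had no STRE in the 500 bases searched.

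The other printed stretches show a promoter with STREs and no match to GAANNTTC or TTCNNGAA (HSP12), one with both (HSP26), and the paired Hsp90 genes:
HSP12: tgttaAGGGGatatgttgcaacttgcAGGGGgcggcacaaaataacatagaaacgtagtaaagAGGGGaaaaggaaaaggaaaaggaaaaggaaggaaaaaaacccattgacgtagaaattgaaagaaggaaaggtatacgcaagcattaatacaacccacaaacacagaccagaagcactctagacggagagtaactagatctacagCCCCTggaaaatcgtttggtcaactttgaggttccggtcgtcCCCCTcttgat
HSP26: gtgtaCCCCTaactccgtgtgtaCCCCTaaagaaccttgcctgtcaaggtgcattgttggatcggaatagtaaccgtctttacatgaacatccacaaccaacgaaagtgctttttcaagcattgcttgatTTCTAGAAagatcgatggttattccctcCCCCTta
HSP82: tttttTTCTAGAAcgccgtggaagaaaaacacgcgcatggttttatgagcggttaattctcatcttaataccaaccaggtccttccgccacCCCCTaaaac
HSC82: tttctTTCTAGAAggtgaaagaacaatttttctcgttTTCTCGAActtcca

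They are chrVI:106816-107076 for HSP12, chrII:381546-381710 for HSP26 and chrXIII:632133-632183 for HSC82, all on the plus strand, and chrXVI:98765-98865 on the minus strand for HSP82.

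Over the 500 bases before the start codon and both strands, STRE (AGGGG) occurred in 34.1% of 6006 yeast genes and at least 3 times in 1.83%. It occurred at least 3 times in 5 of the 10: HSP12 held 5 matches, and HSP26, HSP42, HSP78 and HSP104 held 3 each. HSP82 held 2, and HSP30, HSC82, BTN2 and CUR1 none. The heat shock element of 3 units (the motif of 2 units below, with its next unit, GAA or TTC in alternation, after 2 further bases) occurred in 1.48% of genes, with 2 overlapping or separate matches in 0.3%, and in HSP42, HSP78, HSP104 and BTN2 among the 10. The shorter motif of 2 units (GAANNTTC or TTCNNGAA), which overlaps the longer one, occurred in 35.2% of genes and in 8 of the 10, all but HSP12 and HSP30. The search took exact letters at this spacing only. Where a gene has no match, as HSP30 for each motif and HSP12 for the heat shock motifs, this says nothing of factors that might act there. The windows of HSP12, HSP30, HSP78, HSC82, HSP104 and BTN2 reach into a neighbouring open reading frame.

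**Figure D1:**
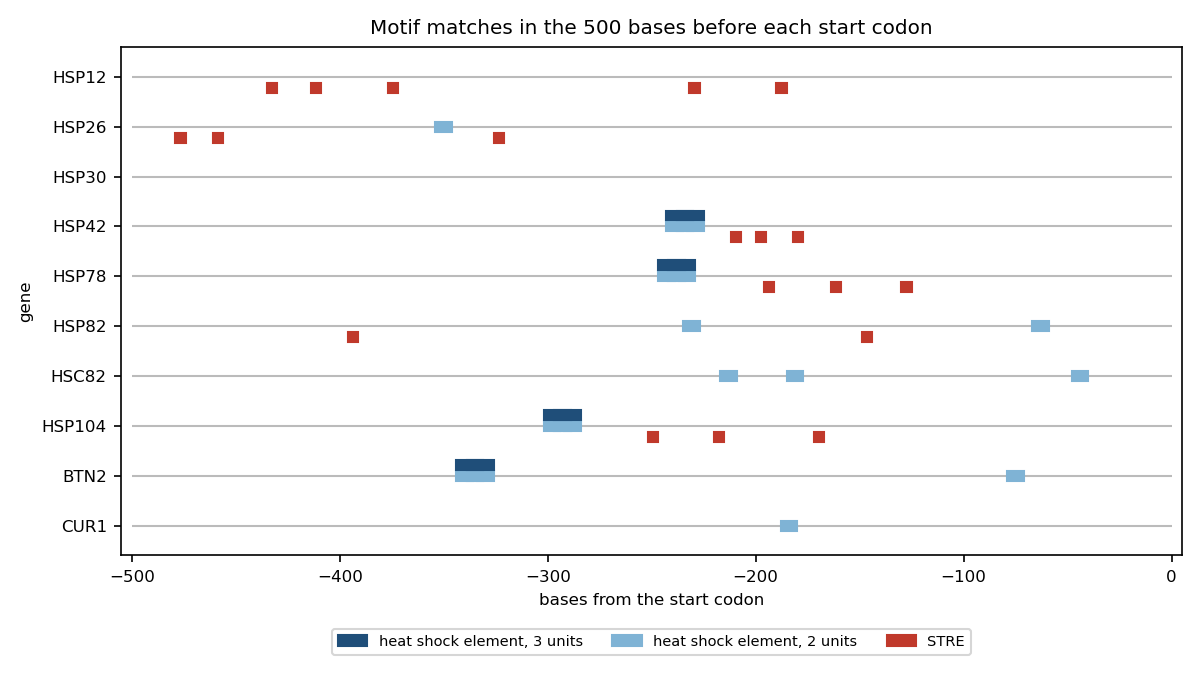
Matches to STRE (AGGGG) and to heat shock elements of 3 or 2 units on both strands, by distance in bases from the start codon, for each of the 10 genes. HSP42, HSP78 and HSP104 hold a long heat shock element and 3 STREs, BTN2 the element without STRE, and HSP12 5 STREs without a match to either heat shock motif.

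The first comparison asked how the genes responded to 16 min without glucose in wild-type cells with DMSO. The mRNAs of 9 genes rose and that of HSC82 fell, where 43.5% of all features passed, 10% as a rise and 33.5% as a fall. BTN2 rose most of the 10, 18.7-fold, and HSP42 11.0-fold. The median log2 change of the 10 was 2.14, while it was -0.27 over all features tested and -0.42 over protein-coding genes. With the libraries rescaled to protein-coding genes or to snoRNAs the same 9 genes passed as a rise and HSC82 did not pass. The medians of all features were then 0.01 and 0.04.

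Among the genes of small heat shock proteins, HSP42 encodes the holdase that gathers misfolded proteins into cytosolic foci. It lay at 4.79 and 4.65 reads per nucleotide in starved cells, against 0.427 and 0.429 in glucose. Its log2 change was 3.45 ± 0.15 (limma adjusted p = 8.44e-09). HSP26, whose product is the other alpha-crystallin type small heat shock protein of yeast, stood at 2.98 and 2.86 in starved cells, against 0.986 and 0.978 in glucose. Its log2 change of 1.57 ± 0.12 was smaller than that of HSP42 (adjusted p = 5.4e-07). In glucose HSP26 was thus the higher of the pair and in starvation the lower. HSP12, whose small hydrophilic product binds membranes, lay at 8.78 and 7.84 in starved cells, against 3.34 and 3.94 in glucose, with the highest starved mean of the 10, though its libraries overlapped those of HSP104. Starved and glucose libraries did not overlap, although the rise was the smallest of the 9 (log2 change 1.19 ± 0.16, adjusted p = 4.76e-05).

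HSP30 encodes a stress protein of the plasma membrane that lowers the activity of the proton pump Pma1. Its level was 5.24 and 4.97 in starved cells, against 0.774 and 0.824 in glucose (log2 change 2.67 ± 0.13, adjusted p = 1.35e-08). The gene of the pump itself, PMA1, changed by -0.82 ± 0.11 (adjusted p = 4.47e-05), and MRH1, a relative of HSP30, by -0.91 ± 0.087 (adjusted p = 3.3e-06). YRO2, the other relative, rose by 0.50 ± 0.094 (adjusted p = 0.000828). HSP30 and YRO2 thus rose, and MRH1 and PMA1 fell.

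The Hsp90 genes moved in opposite directions. HSP82, the stress-inducible copy, lay at 4.82 and 4.65 in starved cells, against 1.36 and 1.34 in glucose (log2 change 1.80 ± 0.13, adjusted p = 4.49e-07). HSC82, the copy made at high level in unstressed cells, lay at 6.53 and 6.73 in starved cells, against 8.67 and 8.85 in glucose (log2 change -0.40 ± 0.096, adjusted p = 0.00413). That fall equals the median of protein-coding genes: HSC82 differed from it by 0.01, and rescaled to protein-coding genes its change was -0.04 (adjusted p = 0.553). The summed level of both genes was 11.4 ± 0.0207 in starved cells and 10.1 ± 0.116 in glucose (SD, n = 2 each). HSP82 made up 41.7% ± 1.13 of that sum in starved cells and 13.4% ± 0.263 in glucose.

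The Hsp90 genes are near copies, with 92.4% identity over 2115 aligned coding positions, and the longest identical run is 113 bases. Of stretches of 50, 75 and 100 bases in HSP82, 6.39%, 2.19% and 0.689% also occurred in HSC82, so a small share of reads could fall to either gene, depending on a read length that is not given in the sources used here. The stretch of 90 bases in which they differ most is shown because it tells their reads apart, with capitals at the 18 differing positions, from chrXVI:97318-97407 (minus strand) and chrXIII:633561-633650 (plus strand):
HSP82: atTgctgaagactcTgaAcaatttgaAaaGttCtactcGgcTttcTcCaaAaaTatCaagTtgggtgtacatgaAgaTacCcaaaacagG
HSC82: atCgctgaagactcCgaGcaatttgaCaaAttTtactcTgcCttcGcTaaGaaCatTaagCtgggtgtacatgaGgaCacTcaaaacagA

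Both disaggregase genes rose. HSP104, which encodes the cytosolic disaggregase, reached 8.37 and 7.87 in starved cells, against 1.51 and 1.54 in glucose (log2 change 2.41 ± 0.13, adjusted p = 3.7e-08). HSP78, which encodes its relative of the mitochondrial matrix, reached 3.14 and 3.09 in starved cells, against 0.355 and 0.371 in glucose (log2 change 3.09 ± 0.15, adjusted p = 2.01e-08). The starved libraries of both genes lay far above the glucose libraries, and HSP104 was the higher of the pair in every library. By level, HSP104 ranked 81 among the 5899 protein-coding genes in starved cells and 597 in glucose.

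BTN2 and CUR1 are paralogs whose products sort misfolded proteins and can cure yeast of the URE3 prion. BTN2 stood at 4.85 and 5.14 in starved cells, against 0.265 and 0.271 in glucose (log2 change 4.20 ± 0.16, adjusted p = 3.14e-09). CUR1 stood at 0.639 and 0.634 in starved cells, against 0.172 and 0.171 in glucose (log2 change 1.87 ± 0.13, adjusted p = 2.75e-07). Both rose without overlap, BTN2 to a level 7.86 ± 0.369 times that of CUR1 in starved cells and 1.56 ± 0.0267 times in glucose (SD, n = 2 each). BTN2 ranked 142 by level in starved cells and 2583 in glucose.

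**Figure D2:**
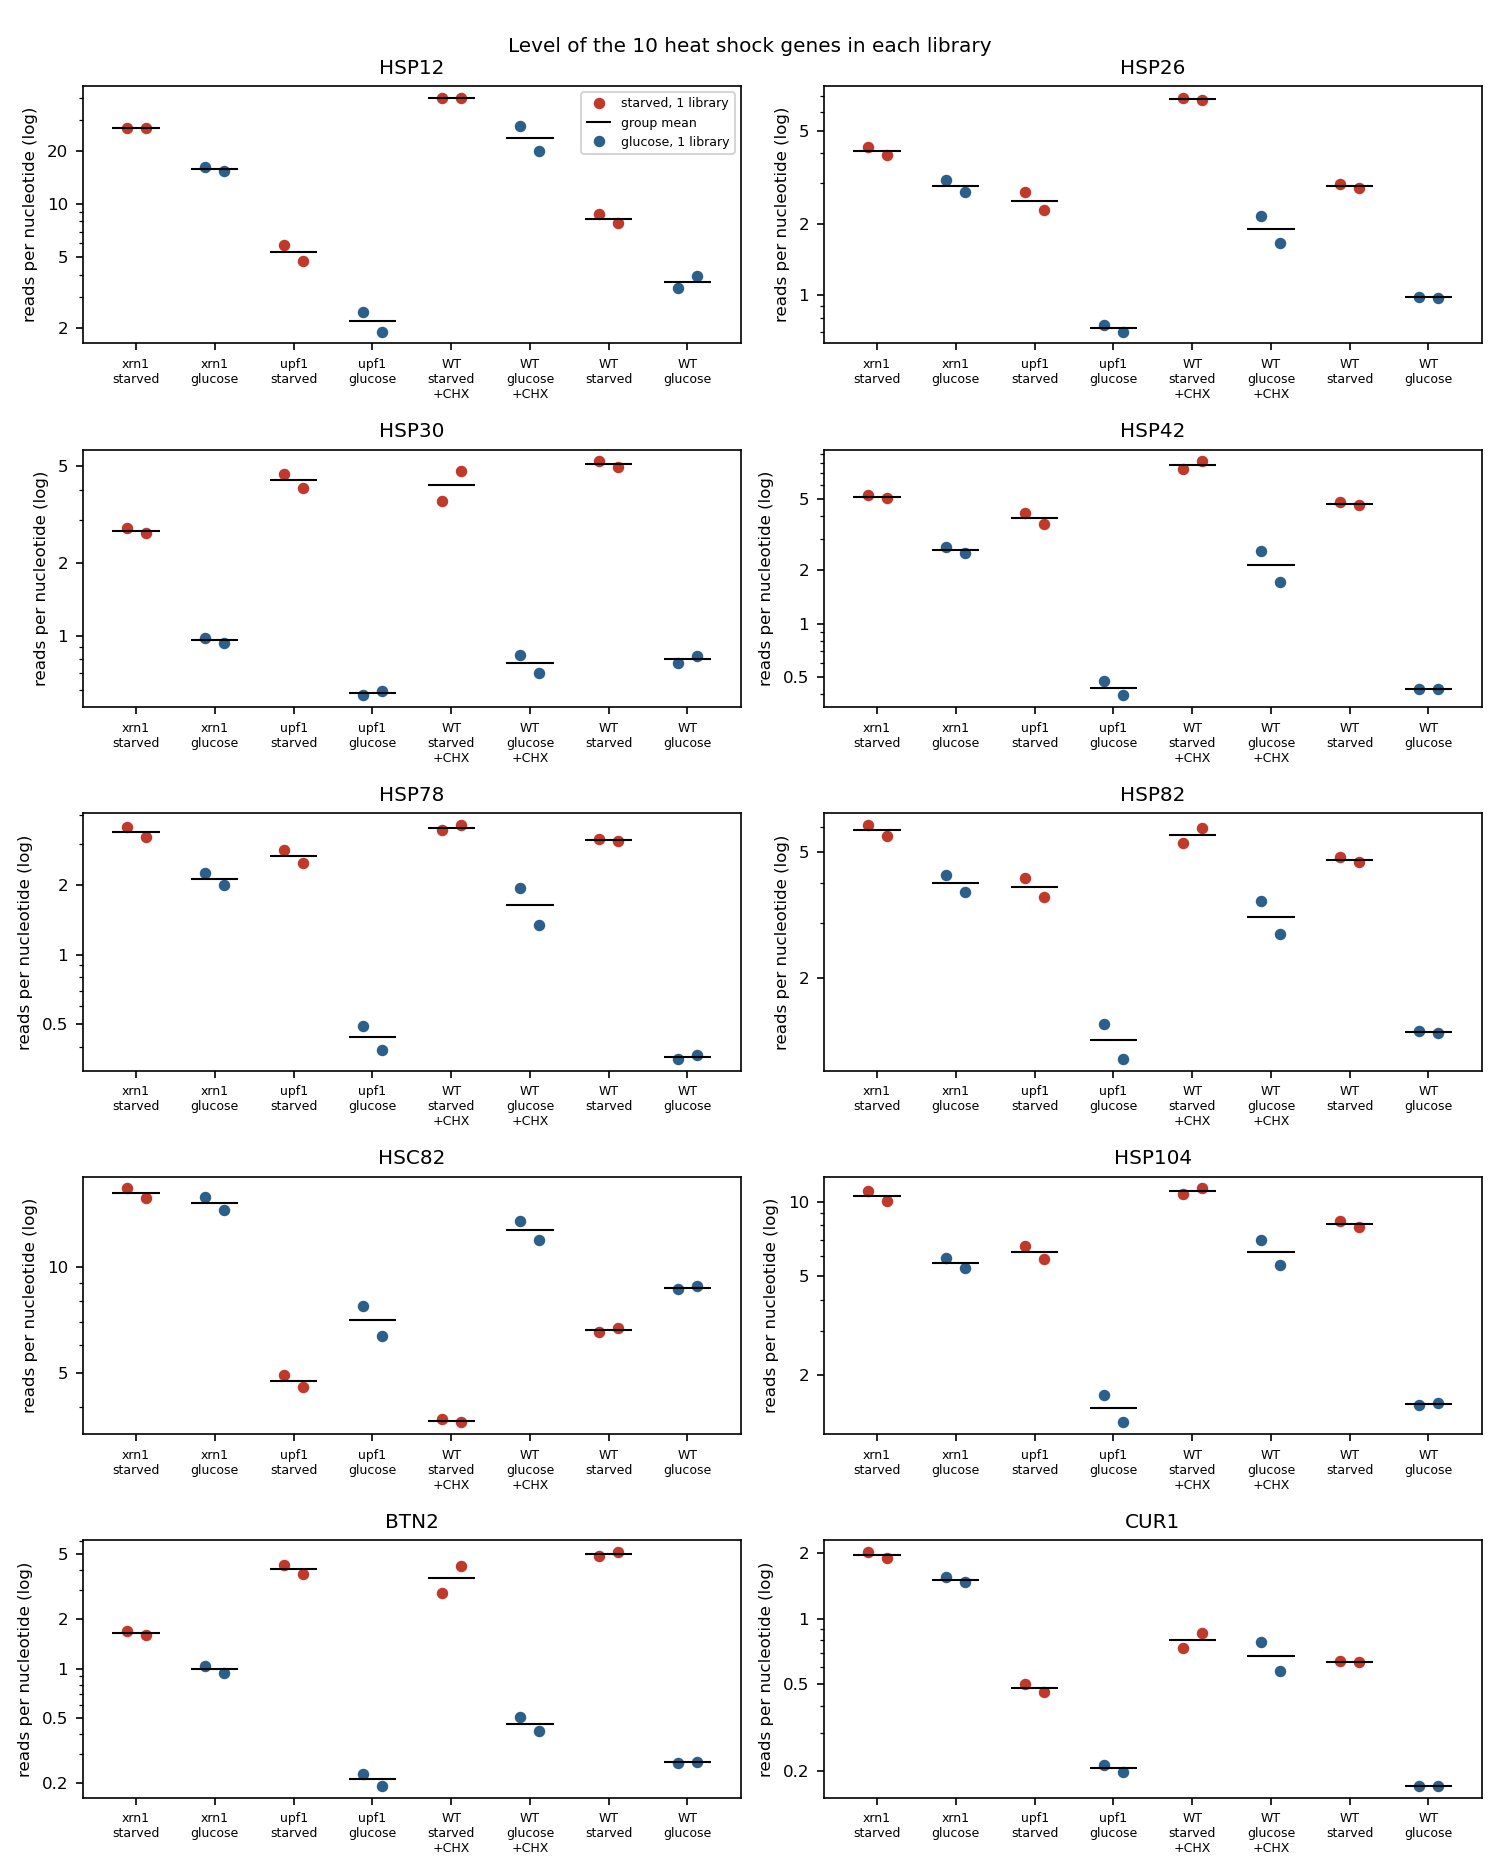
Reads per nucleotide (log axis) of each of the 10 genes in the 16 libraries, with a point per library and a line at the group mean, starved groups in red and glucose groups in blue. In wild type and in upf1 all genes but HSC82 lie higher in starved cells, and the BTN2 mean is 1.66 in starved xrn1 against 4.999 in starved wild type.

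Other chaperone and stress genes were read beside them, in a comparison where 625 of 5817 protein-coding genes rose and 3084 fell. Of 10 genes of cytosolic Hsp70, Hsp110 and their partners, 6 rose and 2 fell in starved wild type, with a median log2 change of 1.21, led by the stress-inducible Hsp70 gene SSA4 (3.51 ± 0.17), the J-protein gene APJ1 (3.25 ± 0.17) and FES1, a nucleotide exchange factor gene (2.44 ± 0.12). Of 12 Hsp90 co-chaperone genes 2 rose and 6 fell, with a median of -0.51, led by falls in CNS1 (-1.45 ± 0.14), CPR7 (-1.01 ± 0.12) and TAH1 (-0.90 ± 0.15). That median lies -0.09 from the median of all protein-coding genes. Of 6 mitochondrial chaperone genes, which work beside Hsp78, 1 rose, the J-protein gene MDJ1 (1.62 ± 0.14), and 2 fell, ZIM17 (-0.68 ± 0.14) and MGE1 (-0.68 ± 0.096), with a list median of -0.15. Of 18 general stress genes of the Msn2 and Msn4 type, 15 rose and 1 fell, with a median of 1.57 and the phosphoglucomutase gene PGM2 (2.69 ± 0.15), the catalase gene CTT1 (2.60 ± 0.16) and the aldehyde dehydrogenase gene ALD3 (2.28 ± 0.15) in front. Of 7 regulators 3 rose and 3 fell, with a median of -0.30, among them GIS1 (1.37 ± 0.13), YAK1 (1.27 ± 0.12) and SKN7 (-1.12 ± 0.10). All 6 markers of mating type a and 1 of 5 of mating type alpha fell, with medians of -1.06 and -0.41.

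The second comparison asked whether the response needs Upf1. Starvation of upf1 cells raised the same 9 genes and lowered HSC82. Of all features 55.1% passed in upf1, 4.29% as a rise and 50.8% as a fall, with a median of -0.54 and a median of 1.94 over the 10 genes. BTN2 lay at 4.29 and 3.80 in starved upf1 cells, against 0.229 and 0.192 in upf1 cells in glucose (log2 change 4.24 ± 0.16, adjusted p = 3.6e-09). HSP42 lay at 4.20 and 3.64 in starved upf1, against 0.479 and 0.396 in upf1 in glucose (log2 change 3.15 ± 0.15, adjusted p = 1.99e-08). CUR1 lay at 0.502 and 0.460 in starved upf1, against 0.214 and 0.199 in upf1 in glucose, and its log2 change of 1.20 ± 0.13 (adjusted p = 9.77e-06) was the smallest rise of the 9. The remaining rises ran from 1.30 ± 0.16 for HSP12 to 2.90 ± 0.13 for HSP30. HSC82 changed by -0.57 ± 0.096 (adjusted p = 0.000319), which is 0.04 from the median of protein-coding genes, and rescaled to those genes its change was 0.01 (adjusted p = 0.869). Among related genes, 6 Hsp70 and partner genes rose and 3 fell (median 1.05), 2 Hsp90 co-chaperone genes rose and 9 fell (-0.65), 1 mitochondrial chaperone gene rose and 3 fell (-0.32), and 14 general stress genes rose and 1 fell (1.00).

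The difference between the starvation responses of upf1 and wild type was itself tested and passed for 0 of the 10 genes in limma, where 4.91% of all features passed, 4.81% as more negative and 0.0948% as more positive. At an unadjusted p under 0.05, 2 of the 10 passed (HSP78 and CUR1), and no other tool was run. The share of all features at that unadjusted threshold was not computed, so nothing is read from this count. The differences lay between -0.67 ± 0.18 for CUR1 and 0.23 ± 0.18 for HSP30. CUR1, at an adjusted p of 0.0598 in the main limma fit, passed with the replicate number as a block (-0.67, adjusted p = 0.0348).

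Levels in upf1 and wild type were also set side by side. In glucose 4 genes were lower in upf1 and 6 did not pass, where 42.0% of all features passed, 32.0% as higher and 9.97% as lower. HSP12 lay at 2.44 and 1.90 in upf1, against 3.34 and 3.94 in wild type (log2 change -0.75 ± 0.16, adjusted p = 0.0018). HSP30 (-0.46 ± 0.13), HSP26 (-0.43 ± 0.12) and HSC82 (-0.32 ± 0.096) were the other 3, with adjusted p of 0.0102, 0.0111 and 0.0182. In starved cells 4 genes were lower in upf1, HSP12 (-0.64 ± 0.16), HSC82 (-0.48 ± 0.096), CUR1 (-0.40 ± 0.13) and HSP104 (-0.38 ± 0.13), with adjusted p of 0.00768, 0.00234, 0.0299 and 0.0356. Of all features 34.9% passed there, 19.1% as higher and 15.9% as lower. HSP12 in glucose and HSC82 in starvation passed whichever library was left out, and each of the other 6 calls was lost without at least 1 library. Without WT glucose replicate 1, WT glucose replicate 2 or upf1 glucose replicate 2 the count in glucose was 2, 1 and 2. Without WT starved replicate 1, WT starved replicate 2 or upf1 starved replicate 2 it was 1, 2 and 1 in starvation. The counts also moved with the scaling: scaled to snoRNAs 0 genes were lower in upf1 in glucose and 10 in starvation, and scaled to protein-coding genes 5 and 3. The medians of all features were then 0.26 and -0.37 scaled to snoRNAs, and 0.12 and 0.15 scaled to protein-coding genes.

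The third comparison asked the same of Xrn1. With starvation of xrn1 cells 8 of the 10 rose, no gene fell, and CUR1 and HSC82 did not pass, where 3.03% of all features passed, 2.80% as a rise and 0.233% as a fall. No rise exceeded 2.83-fold, that of HSP30. The median log2 change was 0.71 over the 10 genes and 0.03 over all features. HSP30 lay at 2.77 and 2.65 in starved xrn1 cells, against 0.980 and 0.933 in xrn1 cells in glucose, and had the largest rise of the 10, 1.50 ± 0.13 (adjusted p = 1.11e-05).

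BTN2, which led in wild type, lay at 1.70 and 1.62 in starved xrn1, against 1.04 and 0.938 in xrn1 in glucose (log2 change 0.74 ± 0.16, adjusted p = 0.022). HSP42 lay at 5.25 and 5.06 in starved xrn1, against 2.71 and 2.48 in xrn1 in glucose (log2 change 0.99 ± 0.15, adjusted p = 0.00222). HSP104 lay at 11.0 and 10.1 in starved xrn1, against 5.93 and 5.39 in xrn1 in glucose (log2 change 0.90 ± 0.13, adjusted p = 0.00134). In all 3 the starved libraries stood above the glucose libraries. HSP12 (0.78 ± 0.16), HSP78 (0.68 ± 0.15), HSP82 (0.56 ± 0.13) and HSP26 (0.50 ± 0.12) rose less, with adjusted p of 0.0154, 0.0301, 0.0441 and 0.0443. CUR1 lay at 2.02 and 1.90 in starved xrn1, against 1.55 and 1.47 in xrn1 in glucose, without passing (0.37 ± 0.13, adjusted p = 0.199), and HSC82 overlapped between the groups (0.10 ± 0.096, adjusted p = 0.809). The count of 8 fell to 3, HSP30, HSP42 and HSP104, when any 1 of the 4 xrn1 libraries was left out, and to 1, HSP30, when libraries were scaled to snoRNAs.

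The starvation response was smaller in xrn1 than in wild type for 8 genes, larger for HSC82 (0.50 ± 0.14, adjusted p = 0.0177) and did not pass for HSP12 (-0.41 ± 0.22, adjusted p = 0.21). Of all features 23.7% passed this test, 20.3% with a more positive and 3.37% with a more negative response in xrn1, and the median was -1.37 over the 10 genes and 0.31 over all features. BTN2 had the largest difference, -3.46 ± 0.22 (adjusted p = 6.22e-06), the most negative of all protein-coding genes tested. HSP42 (-2.46 ± 0.21, adjusted p = 1.78e-05) and HSP78 (-2.41 ± 0.22, adjusted p = 2.16e-05) followed. HSP104, CUR1, HSP82, HSP30 and HSP26 had differences of -1.51, -1.50, -1.25, -1.17 and -1.07. Rescaled to protein-coding genes 9 of the 10 passed, all as smaller responses. They included HSP12 (-0.78, adjusted p = 0.00182), and HSC82 did not pass (0.13, adjusted p = 0.227). HSP12 also passed with only the compared groups in the fit (-0.41, adjusted p = 0.0307). With scaling to snoRNAs 8 passed as smaller responses, where 293 of all features passed in either direction and the median was -0.17.

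**Figure D3:**
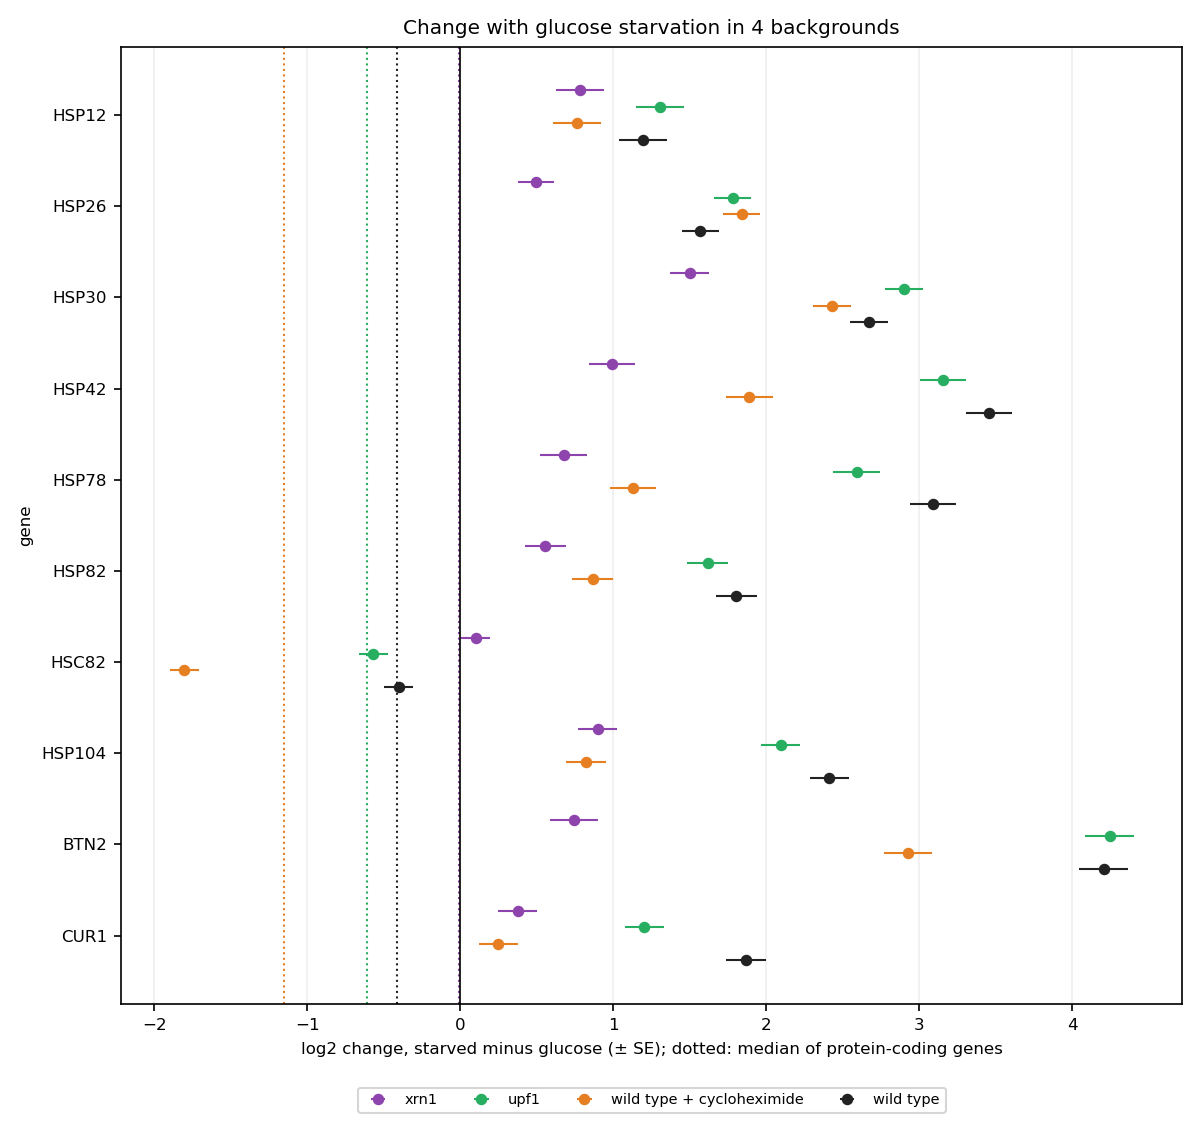
Log2 change with starvation (± SE) of the 10 genes in xrn1, in upf1, in wild type with cycloheximide and in wild type with DMSO, with dotted lines at the medians of protein-coding genes. The xrn1 changes lie between 0.10 and 1.50 for every gene, below those of wild type in all but HSC82, and the largest gap is that of BTN2, 0.74 in xrn1 and 4.20 in wild type.

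In glucose, 9 genes were higher in xrn1 than in wild type and HSP30 did not pass. Here 91.0% of all features passed, 90.6% as higher and 0.483% as lower, and the median was 2.03 over all features and 1.88 over the 10 genes, so a share of 9 in 10 is near the background. CUR1 lay at 1.55 and 1.47 in xrn1, against 0.172 and 0.171 in wild type, the largest rise of the 10 (3.11 ± 0.13, adjusted p = 1.51e-10). HSP42 lay at 2.71 and 2.48 in xrn1, against 0.427 and 0.429 in wild type (2.59 ± 0.15, adjusted p = 2.23e-09). HSP30 lay at 0.980 and 0.933 in xrn1, against 0.774 and 0.824 in wild type (0.26 ± 0.13, adjusted p = 0.0652), 1.80 below the median of protein-coding genes. With libraries scaled to protein-coding genes 3 of the 10 were higher, 5 lower and 2 did not pass, where the median of all features was 0.16.

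In starved cells the same contrast gave 6 genes higher in xrn1, 2 lower and 2 that did not pass, where 93.4% of all features passed, 93.1% as higher and 0.259% as lower. BTN2 lay at 1.70 and 1.62 in starved xrn1, against 4.85 and 5.14 in starved wild type, and fell by 1.59 on the log2 scale (SE 0.16, adjusted p = 3.92e-07). HSP30 lay at 2.77 and 2.65 in starved xrn1, against 5.24 and 4.97 in starved wild type (-0.91 ± 0.13, adjusted p = 1.06e-05). These are 2 of the few protein-coding genes lower in starved xrn1 than in starved wild type, 11 of 5817. HSP42 and HSP78 did not pass (0.13 ± 0.15 and 0.12 ± 0.15, adjusted p = 0.429 and 0.454), while the median protein-coding gene was 2.39 higher. HSP12 (1.71 ± 0.16), CUR1 (1.62 ± 0.13) and HSC82 (1.30 ± 0.096) were higher in xrn1 by more than 1 on the log2 scale, and HSP26 (0.49 ± 0.12), HSP104 (0.38 ± 0.13) and HSP82 (0.31 ± 0.13) by less. With libraries scaled to protein-coding genes all 10 were lower in starved xrn1. Of the 11599 features 6927 then passed in either direction, with a median of 0.12. Scaled to snoRNAs 3 of the 10 were higher, 2 lower and 5 did not pass, where the median of all features was 1.90. The comparisons of xrn1 with wild type and the starvation response of wild type share libraries, so their values are given side by side and not correlated.

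The other chaperone lists were measured in xrn1 as well, where 233 of 5817 protein-coding genes rose with starvation and 5 fell. With starvation in xrn1, 4 of the 10 Hsp70 and partner genes rose and none fell (median 0.30), led by APJ1 (0.99 ± 0.17), SSA4 (0.83 ± 0.17) and SSE2 (0.57 ± 0.13). Of the 12 Hsp90 co-chaperone genes and the 6 mitochondrial chaperone genes none passed (medians 0.01 and 0.03). Of the 18 general stress genes 14 rose and none fell (median 0.86), led by SIP18 (1.97 ± 0.22), CTT1 (1.64 ± 0.16) and SPI1 (1.60 ± 0.11). The response of the general stress genes was more negative in xrn1 than in wild type for 9, more positive for 2 and did not pass for 7 (median difference -0.54). For the Hsp70 and partner genes it was more negative for 5 and did not pass for 5 (median -0.67). SSA4 (-2.68 ± 0.24), APJ1 (-2.26 ± 0.24) and FES1 (-2.20 ± 0.17) led. Of the Hsp90 co-chaperone genes 5 were more positive and 1 more negative, and of the mitochondrial ones 1 and 1. Of all 5817 protein-coding genes 2063 were more positive and 235 more negative.

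The fourth comparison followed the change with starvation in cells given cycloheximide. As described, the drug was added after the move to starvation medium, and how long it acted is not given. How much of the change came before the block of translation cannot be told. Within the cycloheximide libraries, starvation raised 8 genes, lowered HSC82 and did not pass for CUR1, where 80.7% of all features passed, 6.99% as a rise and 73.7% as a fall. The median was 1.00 over the 10 genes and -1.14 over all features. Both other scalings gave 9 genes higher and 1 lower, with CUR1 at 1.38 scaled to protein-coding genes (adjusted p = 4.01e-07) and 0.54 scaled to snoRNAs (adjusted p = 0.0394). The medians of all features were then -0.09 and -0.89. CUR1 also passed without WT glucose CHX replicate 1 (0.47, adjusted p = 0.00352) or WT starved CHX replicate 1 (0.37, adjusted p = 0.0455). BTN2 lay at 2.90 and 4.24 in starved cells with the drug, against 0.509 and 0.414 in glucose with the drug (log2 change 2.92 ± 0.16, adjusted p = 2.24e-09). HSP30 lay at 3.59 and 4.78 in starved cells with the drug, against 0.835 and 0.704 in glucose with the drug (2.43 ± 0.13, adjusted p = 1.39e-09). HSP26 lay at 6.89 and 6.73 in starved cells with the drug, against 2.18 and 1.66 in glucose with the drug (1.84 ± 0.12, adjusted p = 1.45e-08). In these 3 genes the starved libraries lay above the glucose libraries, although the 2 starved libraries lay apart from each other for BTN2 and HSP30.

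HSC82 lay at 3.68 and 3.61 in starved cells with the drug, against 13.6 and 11.97 in glucose with the drug, a fall of 1.80 on the log2 scale (SE 0.096, adjusted p = 1.92e-09). It fell by more than the median protein-coding gene, by 0.65. HSP82 lay at 5.36 and 5.97 in starved cells with the drug, against 3.50 and 2.75 in glucose with the drug (0.86 ± 0.13, adjusted p = 5.89e-05), so in starved cells with cycloheximide the inducible Hsp90 mRNA exceeded the constitutive one. CUR1 lay at 0.734 and 0.865 in starved cells with the drug, against 0.780 and 0.574 in glucose with the drug, and the groups overlapped (0.25 ± 0.13, adjusted p = 0.0926). The other rises were 1.89 ± 0.15 for HSP42, 1.13 ± 0.15 for HSP78, 0.82 ± 0.13 for HSP104 and 0.76 ± 0.16 for HSP12.

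The response with cycloheximide was more negative than that with DMSO for 7 genes, where 63.1% of all features passed, 61.0% as more negative and 2.06% as more positive. The 7 were HSP78 (-1.96 ± 0.22), CUR1 (-1.62 ± 0.18), HSP104 (-1.59 ± 0.18), HSP42 (-1.56 ± 0.21), HSC82 (-1.40 ± 0.14), BTN2 (-1.28 ± 0.22) and HSP82 (-0.94 ± 0.19), with adjusted p between 2.75e-06 for HSC82 and 0.00104 for HSP82. HSP12 (-0.43 ± 0.22), HSP30 (-0.24 ± 0.18) and HSP26 (0.27 ± 0.17) did not pass, with adjusted p of 0.108, 0.249 and 0.177. The median difference was -0.88 over all features and -1.34 over the 10. Each response lies within 1 header prefix, but their difference sets libraries of 1 prefix against those of the other. Drug and prefix thus cannot be told apart in it. With libraries scaled to protein-coding genes 5 genes were more negative, 1 more positive and 4 did not pass. Over all features 4742 then passed in either direction, with a median of -0.13.

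Cycloheximide against DMSO was compared within each medium, where the drug and the header prefix cannot be told apart. In glucose 9 of the genes were higher with the drug and HSP30 did not pass, where 92.1% of all features passed, 91.3% as higher and 0.836% as lower, with a median of 1.94. HSP12 lay at 27.8 and 20.1 with the drug, against 3.34 and 3.94 with DMSO, the largest rise of the 10 (2.70 ± 0.16, adjusted p = 2.68e-09). HSP30 lay at 0.835 and 0.704 with the drug, against 0.774 and 0.824 with DMSO, and the groups overlapped (-0.06 ± 0.13, adjusted p = 0.657). HSP42 (2.28 ± 0.15), HSP78 (2.14 ± 0.15) and HSP104 (2.03 ± 0.13) were close to the median, and BTN2 (0.77 ± 0.16) and HSC82 (0.54 ± 0.096) were well under it. Scaled to protein-coding genes 1 gene was higher, 5 lower and 4 did not pass, where the median of all features was 0.097.

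In starved cells 5 of the genes were higher with the drug, 3 lower and 2 did not pass, where 74.1% of all features passed, 65.8% as higher and 8.32% as lower. HSP12 lay at 40.0 and 40.3 with the drug, against 8.78 and 7.84 with DMSO (2.27 ± 0.16, adjusted p = 4.03e-08), and ranked 9 among protein-coding genes by level. HSC82 lay at 3.68 and 3.61 with the drug, against 6.53 and 6.73 with DMSO (-0.86 ± 0.096, adjusted p = 2.68e-06). BTN2 lay at 2.90 and 4.24 with the drug, against 4.85 and 5.14 with DMSO (-0.51 ± 0.16, adjusted p = 0.0106). HSP12 was thus higher without overlap, and HSC82 and BTN2 lower without overlap. HSP30 was the third gene lower (-0.30 ± 0.13, adjusted p = 0.0459), HSP26 (1.22 ± 0.12), HSP42 (0.72 ± 0.15), HSP104 (0.44 ± 0.13) and CUR1 (0.32 ± 0.13) were higher, and HSP82 and HSP78 did not pass (adjusted p = 0.0995 and 0.303). Without WT starved CHX replicate 1 the change was -0.24 for BTN2 (adjusted p = 0.166) and -0.09 for HSP30 (adjusted p = 0.508), and neither passed scaled to snoRNAs or with only the compared groups. The CUR1 change was 0.20 without WT starved CHX replicate 2, and 0.33 and 0.32 without WT starved replicate 1 or 2. It passed in none of these fits, nor without either library of WT glucose or of starved xrn1. HSP30 also did not pass without WT starved replicate 1 or 2 (-0.26 and -0.34). The same held without either library of WT glucose, upf1 glucose or either xrn1 group. BTN2 did not pass without WT starved replicate 2 either (-0.47). The count of 8 was 5 without WT starved replicate 2. Scaled to protein-coding genes 1 gene was higher, 8 lower and 1 did not pass, where the median of all features was -0.02.

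**Figure D4:**
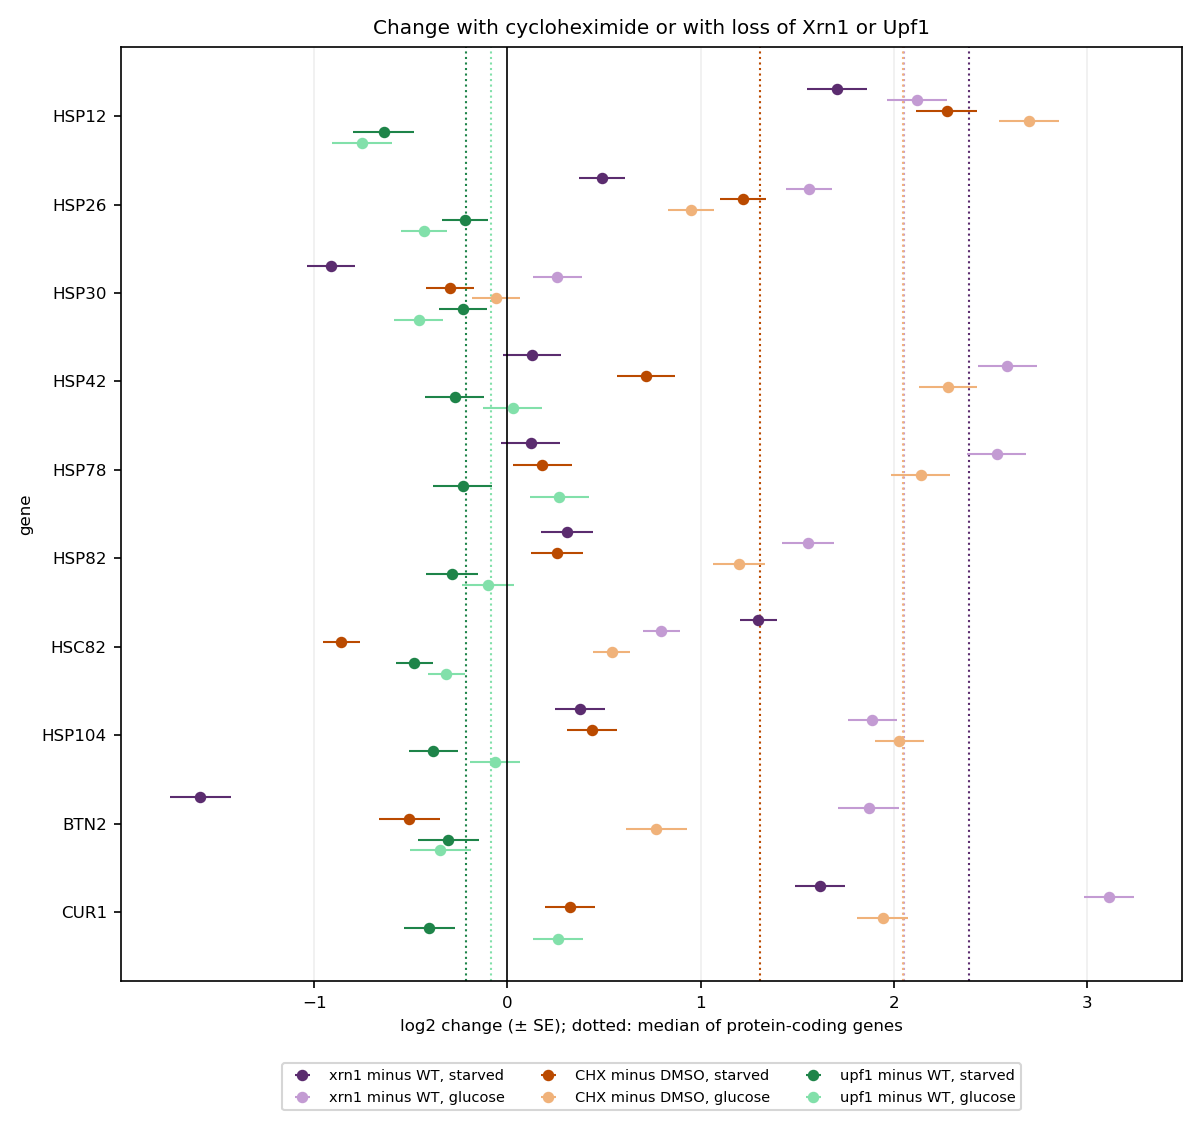
Log2 change (± SE) of the 10 genes in xrn1 against wild type, with cycloheximide against DMSO, and in upf1 against wild type, each in starved cells (dark) and in glucose (light), with dotted lines at the medians of protein-coding genes. BTN2 and HSP30 lie below 0 in starved xrn1 although the median gene lies at 2.39, and HSP12 lies above the median with cycloheximide in both media.

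The chaperone lists under cycloheximide gave these counts, where with starvation 459 of 5817 protein-coding genes rose and 4697 fell. The 12 Hsp90 co-chaperone genes all fell, with a median of -1.33 that lies -0.17 from that of protein-coding genes, led by PPT1 (-3.34 ± 0.10), CNS1 (-3.17 ± 0.14) and CPR7 (-2.04 ± 0.12). Of the Hsp70 and partner genes 6 rose and 4 fell (median 0.52), with YDJ1 (-2.30 ± 0.098) and SSE1 (-1.50 ± 0.095) among the falls and APJ1 (1.80 ± 0.17) among the rises. Of the general stress genes 13 rose and 3 fell (median 0.92), led by SIP18 (3.15 ± 0.22), ALD3 (1.79 ± 0.15) and GPH1 (1.73 ± 0.17). The pump gene PMA1 fell by 3.11 on the log2 scale (SE 0.11) and MRH1 by 2.42 (SE 0.087), while HSP30 rose by 2.43. YRO2, which rose with starvation under DMSO, changed by -0.70 ± 0.094 here. The median over protein-coding genes was -1.16.

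Ratios within a library do not depend on how libraries are scaled, so they were used to compare related genes. The ratio of HSP82 to HSC82 averaged 0.360 ± 0.00515 in starved xrn1 and 0.262 ± 0.00698 in xrn1 in glucose (SD, n = 2 in each group here and below). It averaged 0.817 ± 0.0297 in starved upf1 and 0.179 ± 0.00714 in upf1 in glucose. With cycloheximide it averaged 1.55 ± 0.141 in starved cells and 0.244 ± 0.0198 in glucose, and with DMSO 0.715 ± 0.0333 in starved cells and 0.154 ± 0.00350 in glucose. The ratio was higher in the starved cells of each background without overlap, and it exceeded 1 in starved cells with cycloheximide alone.

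The ratio of BTN2 to CUR1 averaged 0.845 ± 0.00535 in starved xrn1 and 0.654 ± 0.0226 in xrn1 in glucose. It averaged 8.41 ± 0.214 in starved upf1 and 1.02 ± 0.0731 in upf1 in glucose, and 4.43 ± 0.673 in starved cells with cycloheximide and 0.687 ± 0.0489 in glucose with cycloheximide. CUR1 was the higher of the paralogs in both xrn1 groups and in glucose with cycloheximide, and BTN2 the higher in both wild-type groups with DMSO. The ratio of HSP26 to HSP42 was lower in starved cells of xrn1 (0.795 ± 0.0234, against 1.12 ± 0.0188 in glucose), upf1 (0.641 ± 0.0138, against 1.67 ± 0.144) and wild type with DMSO (0.618 ± 0.00497, against 2.30 ± 0.0181). With cycloheximide the groups overlapped (0.879 ± 0.0769 in starved cells, 0.911 ± 0.0806 in glucose). The ratio of HSP104 to HSP78 ran from 2.34 ± 0.0178 in starved upf1 to 4.20 ± 0.0572 in wild type in glucose. It was higher in starved than in glucose libraries of xrn1 (3.11 ± 0.0179, against 2.67 ± 0.0404), and lower in the starved groups of the other 3 backgrounds.

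**Figure D5:**
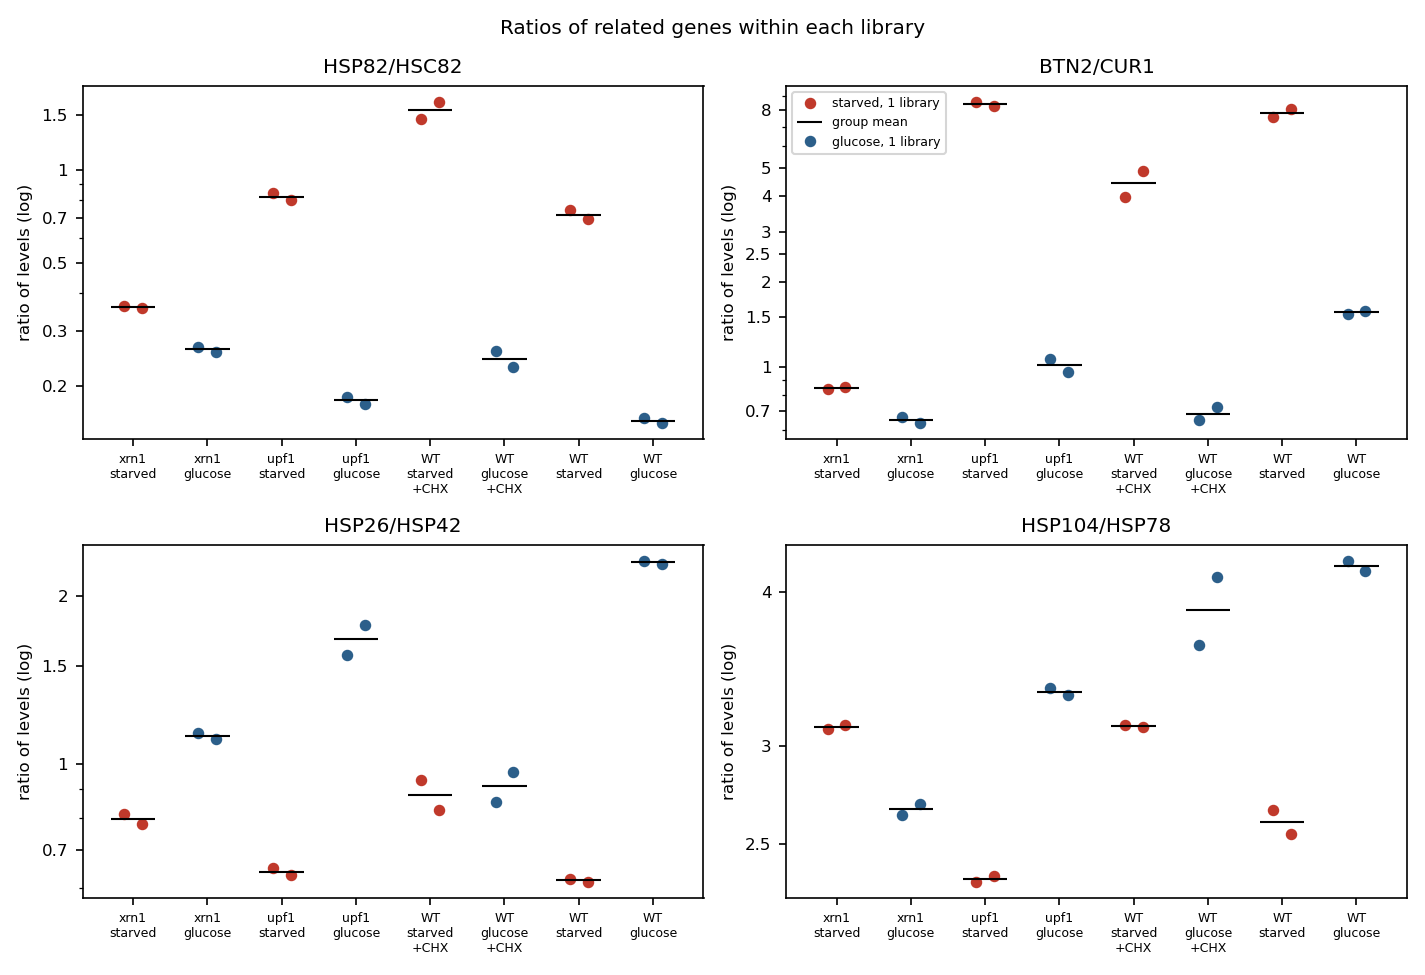
Ratios of related genes within each library (log axes), with a point per library and a line at the group mean, starved groups in red and glucose groups in blue. HSP82 to HSC82 is higher in every starved group, reaching 1.55 with cycloheximide, and BTN2 to CUR1 stays under 1 in xrn1.

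Across the 8 groups the order of levels on the deposited scale differed by gene. That scale also carries a shift shared by most genes. The median protein-coding level was 1.08 and 1.04 in starved xrn1, and 0.181 and 0.171 in starved wild type with DMSO. HSP12 was highest in starved cells with cycloheximide (40.1 ± 0.210), then in starved xrn1 (27.1 ± 0.0269) and glucose with cycloheximide (23.9 ± 5.47), which overlapped, and lowest in upf1 in glucose (2.17 ± 0.386). HSP26 and HSP42 were highest in starved cells with cycloheximide too, and HSP78 and HSP104 likewise, there overlapping starved xrn1. HSP82 was highest in starved xrn1, overlapping starved cells with cycloheximide. HSP30 and BTN2 were highest in starved wild type with DMSO (5.10 ± 0.187 and 4.999 ± 0.206), and CUR1 in starved xrn1 (1.96 ± 0.0826). HSC82 was highest in both xrn1 groups, which overlapped (16.3 ± 0.688 starved and 15.2 ± 0.977 in glucose), and lowest in starved cells with cycloheximide (3.65 ± 0.0514). By rank among protein-coding genes, HSP82, HSC82 and CUR1 stood at 507, 152 and 1639 in starved xrn1. In starved wild type with DMSO their ranks were higher, at 149, 100 and 1020.

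Profiles were compared after the median of protein-coding genes was taken from each library, over the 16 libraries, as a description; the libraries of a group share their treatment and strain. Among the 10, the closest pairs were HSP30 with HSP82 (r = 0.990), HSP82 with BTN2 (0.989) and HSP78 with HSP104 (0.989). HSC82 stood apart, with r between -0.41 with HSP12 and 0.40 with HSP30. Of 5503 other genes considered, the profile most like that of HSP12 was SLM1 (r = 0.989), followed by AGP2 (0.981), and for HSP26 HXT2 (0.989) and AGP1 (0.971). For HSP30 they were SSA1 (0.991) and SIS1 (0.985), for HSP82 SIS1 (0.996) and MDJ1 (0.983), and for HSP42 ROQ1 (0.995) and OPI10 (0.992). For HSP78 they were APJ1 (0.993) and ROQ1 (0.986), for HSP104 SSA4 (0.988) and APJ1 (0.988), and for BTN2 APJ1 (0.992) and FES1 (0.988). For HSC82 they were SCW4 (0.996) and CYS3 (0.993), and for CUR1 ATG41 (0.968) and YBR287W (0.961).

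Among Nrd1-unterminated transcripts, 3 had a nearly constant ratio to one of the genes over the 16 libraries: NUT0227 to HSP12, NUT0034 to HSP26 and NUT0864 to HSP30, with an SD of the log2 ratio of 9.91e-05, 0.0052 and 0.0169. They are not counted as separate measurements. No annotated open reading frame overlaps any of the 10 genes.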

How the data were processed

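The authors deposited a coverage signal, reads per nucleotide of each feature, for 16 libraries, and 8 columns of group means that were not used. The submitters' processing notes name build R64 and the tools DESeq2, featureCounts 2.0.0, HISAT2 2.2.0 and Trim Galore, with no role or order, and the scaling between libraries is not stated there. Per the labels' protocols, spike-in was mixed with 1 µg of total RNA ahead of ribosomal depletion and stranded library preparation. Scaling once more to the spike-ins returned a factor of 1.00 for each library. Of low open reading frames, 80.1 to 91.5% gave a whole number of reads within 0.05, so no count test was run.

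From these values log2(value + 0.00369), the pseudocount being the 5th percentile of positive values, was fitted with limma 3.58.1 (R 4.3.3; 1 mean per group over 16 libraries, empirical Bayes with a trend, 8 residual and 4.43 prior degrees of freedom). The 11599 features with a mean at or above the pseudocount were tested, with Benjamini-Hochberg adjustment in each comparison. The fit was tested on simulated data. Motifs and sequences were read with Python 3.11.15 from R64; the printed stretches were chosen after the motif matches were seen.

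All 10 genes were named, with the 2 genes whose profile was most like each (mean at least 0.05, not dubious) and, for 6 lists of related genes and the mating type markers, up to 3 members with the largest change that passed. The members and lists were chosen with earlier results of these data known. Replicates share a number, and the correlation of deviations between same-numbered libraries lay between -0.0535 and 0.0825. The alternatives were other pseudocounts, filters, scalings, libraries in the fit, a replicate block, a 2-fold minimum and leaving out each library.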

Additional observations from a re-analysis of the deposited data

Results flagged for a closer look

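The change with starvation differed between xrn1 and wild type, by a test of the difference itself (limma), for 9 of the 10 genes. Of all features 23.7% passed that test, 20.3% as more positive in xrn1 and 3.37% as more negative. The log2 difference was -3.46 for BTN2, -2.46 for HSP42, -2.41 for HSP78, -1.51 for HSP104, -1.50 for CUR1, -1.25 for HSP82, -1.17 for HSP30, -1.07 for HSP26 and 0.50 for HSC82. The difference of HSC82 was 0.13 scaled to protein-coding genes (adjusted p = 0.227) and -0.05 scaled to snoRNAs (adjusted p = 0.967). It did not pass without WT glucose replicate 2, WT starved replicate 1, xrn1 glucose replicate 2 or xrn1 starved replicate 1, at between 0.44 and 0.49.

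The change with starvation also differed between cells with cycloheximide and cells with DMSO for 7 genes, where 63.1% of all features passed, 2.06% as more positive and 61.0% as more negative, so the count is near the share of all features. The log2 difference was -1.96 for HSP78, -1.62 for CUR1, -1.59 for HSP104, -1.56 for HSP42, -1.40 for HSC82, -1.28 for BTN2 and -0.94 for HSP82. Scaled to protein-coding genes HSP82 (-0.16, adjusted p = 0.307) and BTN2 (-0.52, adjusted p = 0.0827) did not pass, and HSP26 passed as more positive (1.045, adjusted p = 1.74e-05). In this difference too the drug and the header prefix cannot be told apart. Groups of 2 libraries are too small for a test of single libraries that stand apart.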

How the results depend on the processing

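A turn of direction was counted only for a log2 change that passed in the main fit or in the alternative. By that count no change of the 10 genes turned with pseudocounts 10 times larger or smaller, no filter on low values or scaling to spike-ins. Scaling to protein-coding genes moved the median of all features by between -2.21 and 1.06, and scaling to snoRNAs by between -0.50 and 0.31. By the same count the direction turned for 27 of 130 changes when scaled to protein-coding genes and for 3 when scaled to snoRNAs. Turns among changes that passed in neither fit are not in these numbers. The levels themselves moved too, and the cause was not tested.

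Scaled to protein-coding genes, cycloheximide in glucose gave -1.08 for HSP26, -0.83 for HSP82, -1.49 for HSC82, -0.0017 for HSP104, -1.24 for BTN2 and -0.068 for CUR1. Cycloheximide in starvation gave -0.031 for HSP26, -0.54 for HSP42, -1.07 for HSP78, -0.99 for HSP82, -0.81 for HSP104 and -0.93 for CUR1. The xrn1 against wild-type change in glucose was -0.50 for HSP26, -1.80 for HSP30, -0.51 for HSP82, -1.27 for HSC82, -0.18 for HSP104 and -0.18 for BTN2. In starvation it was -0.73 for HSP12, -1.95 for HSP26, -2.31 for HSP42, -2.31 for HSP78, -2.13 for HSP82, -1.14 for HSC82, -2.06 for HSP104 and -0.81 for CUR1, and scaled to snoRNAs -0.16 for HSP82 and -0.10 for HSP104. HSC82 with starvation in upf1 was 0.014, and scaled to snoRNAs its difference of xrn1 from wild type was -0.052.

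The count of genes that passed was 1 for starvation in xrn1 under snoRNA scaling and with a 2-fold minimum. With that minimum it was 2 for cycloheximide in starvation, 0 for upf1 in glucose, 0 for upf1 in starvation and 4 for xrn1 in starvation. Under snoRNA scaling it was 0 for upf1 in glucose, 10 for upf1 in starvation and 5 for xrn1 in starvation; the snoRNA factors of starved upf1 differed between replicates (0.994 and 1.40). For the difference of upf1 from wild type it was 1 with a filter 10 times stricter, CUR1 as more negative (-0.67, adjusted p = 0.0437). Without the 4 cycloheximide libraries it was 1, as more negative. With protein-coding scaling it was 1, HSP26 as more positive (0.43, adjusted p = 0.0349). With snoRNA scaling it was 2, HSP78 and CUR1, both as more negative.

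Leaving out each library in turn gave counts of 10 to 10 for starvation in wild type and in upf1, 3 to 8 in xrn1 and 9 to 10 under cycloheximide. They were 9 to 9 for cycloheximide in glucose, 5 to 8 in starvation, 1 to 5 and 1 to 4 for upf1 in glucose and starvation, and 9 to 10 and 6 to 8 for xrn1. For the differences in response they were 0 to 1 for upf1, 8 to 9 for xrn1 and 7 to 8 for cycloheximide. A lone library was assumed to vary like the other groups.

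Replicate numbers are shared between groups but pair nothing in the labels. With the replicate block 1 gene, CUR1, passed the difference of upf1 from wild type, HSP82 passed with cycloheximide in starvation (adjusted p = 0.0493), no other call on the 10 genes changed, and 554 features passed with starvation in xrn1, against 352 without it.

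Counts of all features moved by over 1.5 times in these cases. Starvation in wild type gave 5049, 1938 scaled to snoRNAs and 1431 at 2-fold, and in upf1 6389, 4129 scaled to protein-coding genes and 1452 at 2-fold. In xrn1 the 352 became 561 with the larger pseudocount, 999 scaled to protein-coding genes, 122 scaled to snoRNAs, 1050 with only the compared groups and 165 at 2-fold. Cycloheximide in glucose gave 10683 and 6594 scaled to protein-coding genes, xrn1 in starvation 10829 and 6927, upf1 at 2-fold 2394 of 4873 in glucose and 1089 of 4053 in starvation. The difference of upf1 gave 569, and 341, 984, 1817, 956, 124 and 355 with the larger pseudocount, protein-coding scaling, snoRNA scaling, the block, the compared groups and 2-fold. That of xrn1 gave 2750, 293 scaled to snoRNAs and 704 at 2-fold, and that of cycloheximide 7314, 4742 scaled to protein-coding genes and 4734 at 2-fold.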
